A study of Mus musculus with 14 samples.

Results

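The aminoacyl-tRNA synthetases, the enzymes that load amino acids onto their transfer RNAs, were followed in gastrocnemius muscle of tumor-bearing mice fed HMB. The 36 genes were chosen by symbol and comprised 20 enzymes of the cytosol, or shared between cytosol and mitochondria, and 16 mitochondrial enzymes whose symbols end in 2. Of these, 34 had a probeset among the 19505 genes measured, each with a single probeset: 18 of the cytosolic or shared enzymes and all 16 mitochondrial ones. Aars and Dars, the alanine and aspartate enzymes of the cytosol, were not named by the probe annotation and were not analysed here, and Mars was listed as Mars1.

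HMB (β-hydroxy-β-methylbutyrate) is a breakdown product of leucine given as a feed supplement. Male C57BL/6 mice carrying subcutaneous Panc02 tumors, a mouse pancreatic cancer line, were fed the AIN-93G control diet with HMB (7 mice) or the same diet alone (7 mice), HMB starting before the tumor cells were injected. RNA of each muscle was hybridised to 1 Affymetrix Clariom S array. The labels' treatment text also speaks of anti-PD1 antibody for mice with established tumors, whereas the series design names diet alone, and the extraction text speaks of tumor although the tissue field names gastrocnemius.

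Each synthetase activity recognises a single amino acid and the tRNAs that carry it, and the charged tRNA passes to the elongation factors that feed the ribosome. Most amino acids have a cytosolic enzyme and a separate, nuclear-encoded enzyme that is imported into mitochondria, where it serves the translation of the respiratory chain subunits encoded by mitochondrial DNA. Several cytosolic enzymes sit together in a multi-synthetase complex, and in mammalian cells many cytosolic synthetase genes are targets of Atf4, the transcription factor of the amino acid response.

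The 14 arrays reached a similar top value (19.21 to 19.54), and 12 of 13 skeletal muscle markers lay above the 95th percentile of the intron control probesets on every array. That percentile was used as the level of background. Control 7 stood apart from the other arrays. Its B cell marker mean was 10.75, where the HMB arrays ranged between 3.22 and 4.03 and the other controls between 3.42 and 3.73. Its T cell marker mean was 9.51, against 4.50 to 5.23 on the HMB arrays and 4.81 to 5.07 on the other controls. Its adipocyte marker mean was 13.84, against 8.62 to 12.34 on the HMB arrays and 8.53 to 10.52 on the other controls. HMB 4 had the highest keratinocyte marker mean of the 14 arrays, 5.14, against 3.81 to 4.07 on the control arrays. Between the groups, 5 of 5 Schwann cell and nerve markers had a lower mean in HMB muscle (list mean 8.65 ± 0.60 for HMB and 9.44 ± 0.30 for control, SD, n = 7 each). The keratinocyte markers had a higher mean in 10 of 10 cases, beside 51.7% of all genes. In both lists 0 markers had an adjusted limma p under 0.05, nor did any of the 19505 genes. At an unadjusted limma p under 0.05, 4 of the 5 Schwann cell and nerve markers measured (8 listed) were lower, beside 2.19% of all genes. HMB 5 had the lowest mean of that list, 7.40, with the other HMB arrays between 8.44 and 9.14. Of the keratinocyte markers 2 were higher at that threshold, beside 2.35% of all genes. No keratinocyte marker lay above the intron percentile on any array, so those differences are between levels not above background. Skeletal muscle markers had a higher mean in 11 of 13 cases (list mean difference 0.12, and 0.12 without control 7). Fibroblast and matrix markers had a lower mean in 5 of 6 (-0.40, and -0.39 without control 7). The part of these marker differences in the results was not tested. Where leaving out control 7 turned a sign or moved a named difference by over 1.5 times, the value without it is given as well. Since the muscle was profiled as bulk tissue, fewer cells of a type and less RNA per cell cannot be told apart.

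Because of that link the promoters were searched for the amino acid response letters TGATGNAA, in which N is any base, read on both strands. RefSeq promoters (GRCm38.p6, 250 bases before to 50 bases after the transcription start) were matched for 25 of the 34 measured genes. The letters occurred in 4 of 11 cytosolic or shared enzymes and in 0 of 14 mitochondrial ones, beside 3.97% of all 32841 promoters and 3.95% of the 15688 measured genes with a promoter. The 4 stretches are shown because, of the 25 promoters matched, these alone held the letters, each read 5′ to 3′ along the gene's own strand and with the matching letters in capitals. They lie at chr6:55037945-55038004 for Gars, chr13:49682111-49682170 for Iars, chr15:11399640-11399699 for Tars (minus strand) and chr4:129189880-129189939 for Yars.
Gars: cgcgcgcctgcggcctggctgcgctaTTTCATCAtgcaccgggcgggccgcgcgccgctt
Iars: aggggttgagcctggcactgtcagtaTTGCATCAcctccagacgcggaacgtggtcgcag
Tars: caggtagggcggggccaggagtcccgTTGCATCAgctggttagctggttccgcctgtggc
Yars: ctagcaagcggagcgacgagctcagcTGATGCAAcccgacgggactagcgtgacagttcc
In Gars, Iars and Tars the letters lie on the opposite strand to the gene, and in Yars on the same strand. A match of letters is a description of the sequence, and binding was not measured. The glycine enzyme Gars differed between HMB and control muscle by 0.064, the isoleucine enzyme Iars by 0.082, the threonine enzyme Tars by 0.0021 and the tyrosine enzyme Yars by 0.11 on the log2 scale, with 95% intervals that all included 0. Without control 7, the lowest array for all 4, these were -0.027, 0.031, -0.033 and 0.018.

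HMB and control muscle were then compared gene by gene. No synthetase differed at an adjusted p under 0.05, beside 0% of all 19505 genes (limma with Benjamini-Hochberg adjustment over all genes), and the adjusted p of the 34 enzymes lay between 0.990 and 0.999. At an unadjusted limma p under 0.05, 1 enzyme was higher in HMB muscle, the mitochondrial asparagine enzyme Nars2, and 0 were lower, beside 2.35% of all genes higher and 2.19% lower. The HMB and control arrays overlapped for all 34 enzymes; they failed to overlap for 0.0974% of all genes. By mean level alone, 25 of the 34 enzymes were higher in HMB muscle, where 51.7% of all genes were. The median difference over the 34 enzymes was 0.058, against 0.0090 over all genes.

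The mitochondrial enzymes had a higher mean in HMB muscle in 13 of 16 cases, with a median difference of 0.098 and single differences between -0.12 and 0.35. The cytosolic or shared enzymes had a higher mean in 12 of 18 cases, with a median of 0.041 and differences between -0.16 and 0.12. When each array was instead centred on its own median, the share of all genes with a higher mean in HMB muscle was 64.2%, with 15 of 16 mitochondrial and 15 of 18 cytosolic or shared enzymes higher. Without control 7 the counts were 11 of 16 and 9 of 18, with medians of 0.047 and -0.0070. Over all genes 49.8% then had a higher mean in HMB muscle, with a median of -0.00067.

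**Figure D1:**
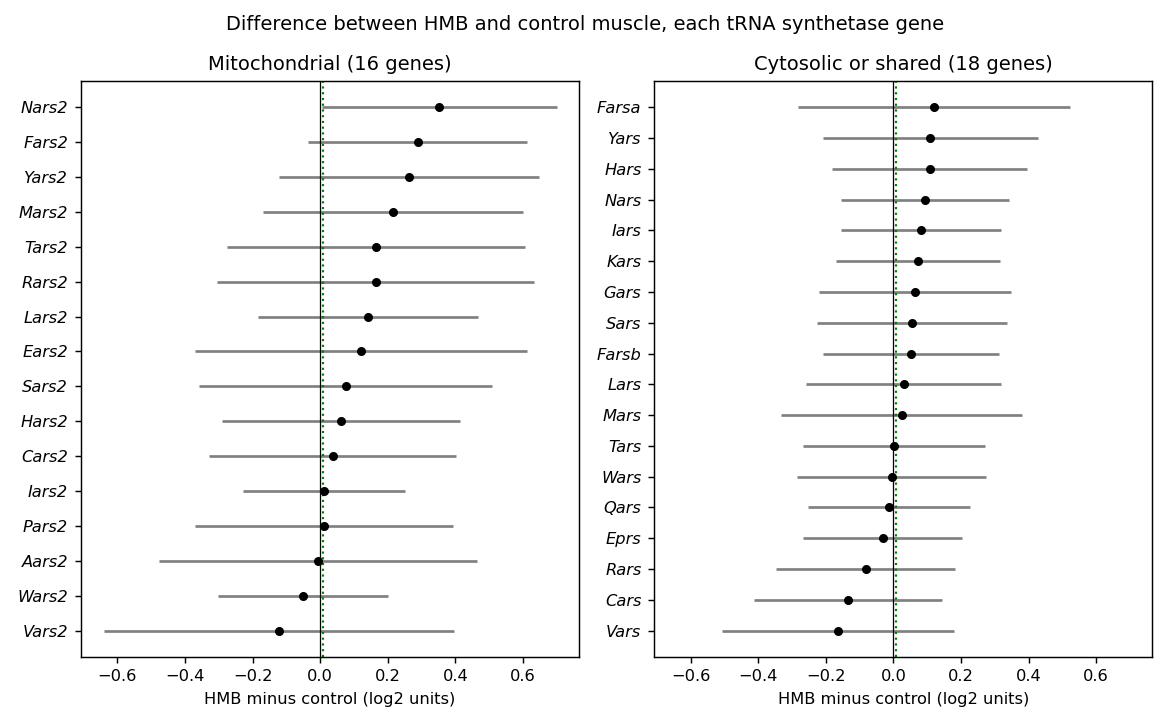
Difference between HMB and control muscle for each tRNA synthetase gene, in log2 units on the horizontal axis, with mitochondrial enzymes on the left and cytosolic or shared enzymes on the right. Points are HMB minus control, bars are 95% intervals from limma (n = 7 each), the solid line marks 0 and the dotted line the median over all genes (0.0090); of the 34 intervals, that of Nars2 excluded 0.

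Among the mitochondrial enzymes, Nars2, which charges asparagine tRNA, had the largest difference. Its level was 8.43 at the lowest, 8.73 at the median and 9.30 at the highest HMB array, against 7.87, 8.49 and 8.80 for control. The groups overlapped, with 2 of 7 HMB arrays above every control array and 6 of 7 above the control mean. The means were 8.79 ± 0.27 for HMB and 8.43 ± 0.31 for control (SD, n = 7 each), a difference of 0.35 with a 95% interval of 0.005 to 0.70 (limma p = 0.047, adjusted p = 0.990; exact two-sided permutation p = 0.034). Without control 7 the difference was 0.39. Over all single arrays left out it lay between 0.26 (without control 2, where the unadjusted limma p was 0.107) and 0.41 (without control 1). Nars2 lay under the intron percentile on every array.

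Fars2, the mitochondrial phenylalanine enzyme, ranged between 10.33 and 11.36 with a median of 10.65 in HMB muscle, against 10.06 to 10.57 with a median of 10.44 in control muscle. Although 4 of 7 HMB arrays exceeded every control array, the highest value came from HMB 2 alone. The difference was 0.29 with a 95% interval of -0.035 to 0.61 (limma p = 0.077, adjusted p = 0.990; exact permutation p = 0.034), and 0.18 without HMB 2.

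Yars2, which charges tyrosine tRNA in mitochondria, had 9.50 as its lowest and 9.70 as its median level in HMB muscle, against 8.78 and 9.67 in control muscle, and its highest level was 10.02, in control muscle. The HMB values lay inside the range of the controls, and the lowest control value was that of control 7. The difference was 0.26 (95% interval -0.12 to 0.65, exact permutation p = 0.164, limma adjusted p = 0.990), and 0.15 without control 7.

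For Mars2, the mitochondrial methionine enzyme, the lowest, median and highest levels were 8.62, 9.09 and 9.43 in HMB muscle, against 8.42, 8.75 and 9.43 in control muscle. The groups covered nearly the same range, and the difference was 0.22 (exact permutation p = 0.241, limma adjusted p = 0.990). The leucine enzyme Lars2, of interest because HMB derives from leucine, had 10.31, 10.72 and 10.90 in HMB muscle, against 9.96, 10.65 and 10.83 in control muscle. Here too the lowest control value was control 7, and the difference was 0.14 (exact permutation p = 0.342, limma adjusted p = 0.990), and 0.044 without control 7.

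The remaining 11 mitochondrial enzymes had larger p values. Tars2 (threonine) and Rars2 (arginine) each had a difference of 0.16, Ears2 (glutamate) of 0.12, Sars2 (serine) of 0.075, Hars2 (histidine) of 0.061 and Cars2 (cysteine) of 0.036. Iars2 (isoleucine) had 0.012 and Pars2 (proline) 0.011. Aars2 (alanine), Wars2 (tryptophan) and Vars2 (valine) had lower means in HMB muscle, with differences of -0.0062, -0.051 and -0.12. Several of these rested on control 7. Without it Tars2 had 0.037, Rars2 0.077, Ears2 0.049 and Vars2 -0.19. Cars2 had -0.058, Iars2 -0.018 and Sars2 -0.019 without it, while Aars2 had 0.022 and Pars2 0.052. Over the 16 mitochondrial enzymes, the lowest end of any 95% interval was -0.64 (Vars2) and the highest end of any was 0.70 (Nars2). Signal was low for most of these genes, as for most genes measured. Of the 16, 12 did not reach the intron percentile on any array, and Iars2 alone exceeded it on each array. Over all 19505 genes, 5590 exceeded it on at least 1 array and 3644 on every array.

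**Figure D2:**
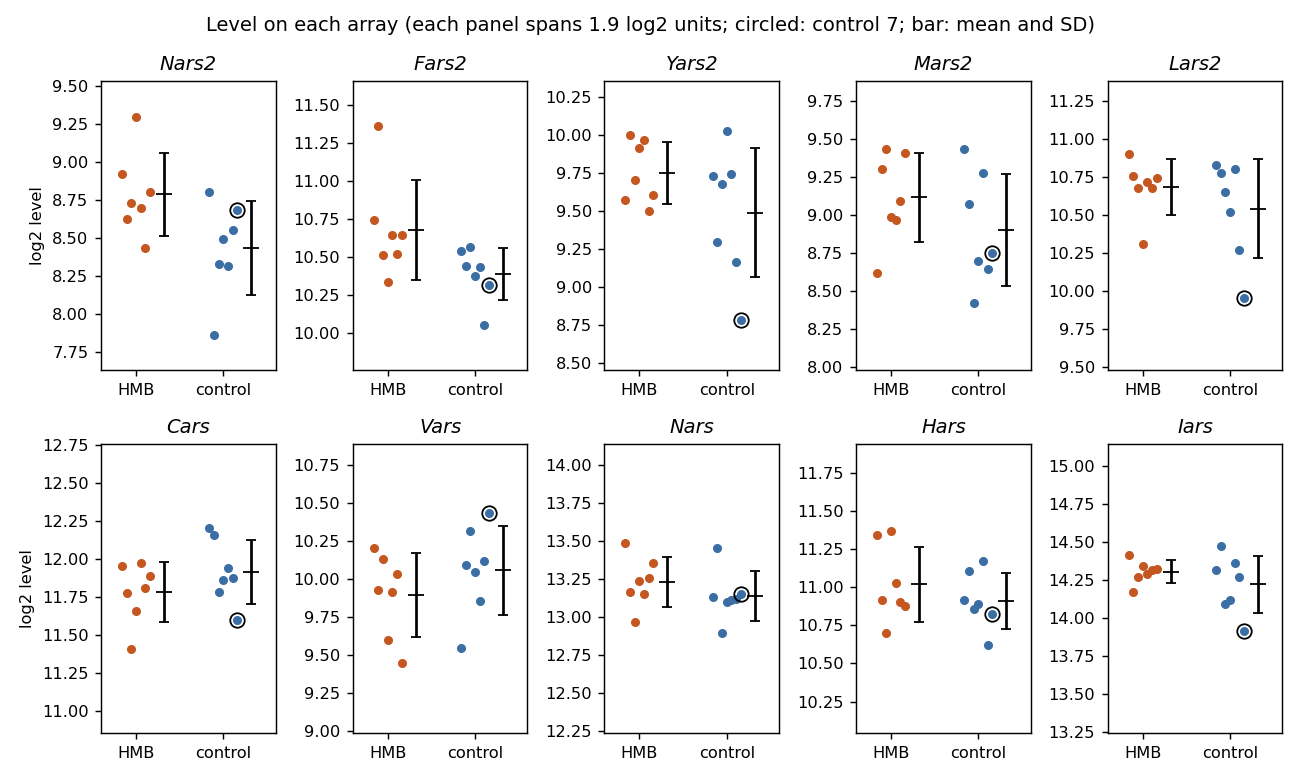
Log2 level on each array for the 5 mitochondrial (top row) and the 5 cytosolic or shared enzymes (bottom row) with the smallest p, HMB left and control right in each panel. Each panel spans the same number of log2 units on its own range, bars are mean and SD (n = 7 each) and control 7 is circled; it is the lowest control for Yars2, Lars2, Cars and Iars and the highest for Vars.

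The cytosolic or shared enzymes were measured with less scatter, with a median pooled SD of 0.205, against 0.331 for the mitochondrial enzymes and 0.429 for all genes, and 14 of 18 lay above the intron percentile on every array. Their 5 smallest limma p values, unadjusted, belonged to Cars, Vars, Nars, Hars and Iars. Cars, the cysteine enzyme, had a lowest, median and highest level of 11.41, 11.81 and 11.97 in HMB muscle, against 11.60, 11.87 and 12.20 in control muscle. The means differed by -0.14 (95% interval -0.41 to 0.14, exact permutation p = 0.247, limma adjusted p = 0.990), and the ranges overlapped over most of their length. Vars, the valine enzyme, had 9.45, 9.93 and 10.20 in HMB muscle, against 9.55, 10.09 and 10.43 in control muscle. Its difference was -0.16 (exact permutation p = 0.295, limma adjusted p = 0.990), and -0.10 without control 7, and it lay under the intron percentile on every array.

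Nars, the cytosolic counterpart of Nars2, had a lowest, median and highest level of 12.96, 13.23 and 13.48 in HMB muscle, against 12.89, 13.12 and 13.45 in control muscle. These ranges nearly coincided, with a difference of 0.094 (95% interval -0.16 to 0.34, exact permutation p = 0.302, limma adjusted p = 0.990). The histidine enzyme Hars had 10.70, 10.92 and 11.37 in HMB muscle, against 10.62, 10.89 and 11.17 in control muscle, a difference of 0.11 (exact permutation p = 0.371, limma adjusted p = 0.990). Iars, the isoleucine enzyme of the multi-synthetase complex, had 14.17, 14.31 and 14.41 in HMB muscle, against 13.91, 14.27 and 14.47 in control muscle. Its HMB arrays lay within the control range, and the difference was 0.082 (exact permutation p = 0.314, limma adjusted p = 0.994), and 0.031 without control 7.

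The dually targeted enzymes, Gars for glycine and Kars for lysine, each serve cytosol and mitochondria from a single gene. Gars had a lowest, median and highest level of 13.43, 13.68 and 13.87 in HMB muscle, against 13.05, 13.70 and 13.76 in control muscle. The difference was 0.064, and -0.027 without control 7, whose value was the lowest of the 14. Kars had 12.96, 13.19 and 13.32 in HMB muscle, against 12.84, 13.08 and 13.42 in control muscle, with a difference of 0.073 (exact permutation p = 0.388, limma adjusted p = 0.996), and 0.031 without control 7. Wars, the tryptophan enzyme, which interferon induces in many cell types, had 11.62, 11.91 and 12.08 in HMB muscle, against 11.48, 11.89 and 12.21 in control muscle. Its difference was -0.0056 with a 95% interval of -0.29 to 0.27, and -0.071 without control 7.

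The other 10 cytosolic enzymes differed by 0.12 or less in size. Farsa (0.12) and Farsb (0.052) encode the subunits of the phenylalanine enzyme, Yars (0.11) encodes the tyrosine enzyme and Sars (0.055) the serine enzyme. Lars, the leucine enzyme, which also acts as a leucine sensor upstream of mTOR in mammalian cells, had a difference of 0.030 (95% interval -0.26 to 0.32), and Mars (methionine) had 0.024. The threonine enzyme Tars had 0.0021, Qars (glutamine) -0.014, Eprs (glutamate and proline) -0.032 and Rars (arginine) -0.082. Without control 7, Farsa had 0.076, Farsb 0.028, Yars 0.018 and Lars 0.013. Mars had -0.091 and Tars -0.033 without it, and Qars had -0.068, Rars -0.14 and Eprs -0.045. Over the 18 cytosolic or shared enzymes, the lowest end of any 95% interval was -0.51 (Vars) and the highest end of any was 0.52 (Farsa). Of the 7 measured members of the multi-synthetase complex, 4 had a higher mean in HMB muscle (median difference 0.024), against 8 of 11 outside it (median 0.055). Without control 7 these counts were 3 of 7 (median -0.045) and 6 of 11 (median 0.018).

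The family also divides into 2 structural classes with unrelated catalytic folds. Of the 15 measured genes counted as class II, 14 had a higher mean in HMB muscle (median difference 0.073), with Aars2 the exception. Of the 19 counted as class I, 11 did (median 0.024). Eprs, which serves glutamate and proline, was counted in class I alone, although the proline enzyme Pars2 stood in class II. Its difference was -0.032, so the class II count depends on that assignment. Without control 7 these counts were 12 of 15 and 8 of 19. With each array centred on its own median, 15 of 15 class II and 15 of 19 class I enzymes were higher. The division is a description and was not tested.

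To set the compartments side by side, each gene was centred on its mean over the 14 arrays and the members were averaged on each array. The mitochondrial mean was 0.054 ± 0.065 in HMB muscle and -0.054 ± 0.18 in control muscle (SD, n = 7 each). The cytosolic or shared mean was 0.011 ± 0.053 in HMB muscle and -0.011 ± 0.13 in control muscle. Mitochondrial minus cytosolic was 0.043 ± 0.052 in HMB muscle, between -0.017 and 0.13, and -0.043 ± 0.17 in control muscle, between -0.26 and 0.24, a difference of 0.087. The HMB arrays thus lay inside the wider range of the controls. Leaving out 1 array at a time gave 0.051 (without control 2) to 0.13 (without control 1), and 0.081 without control 7.

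**Figure D3:**
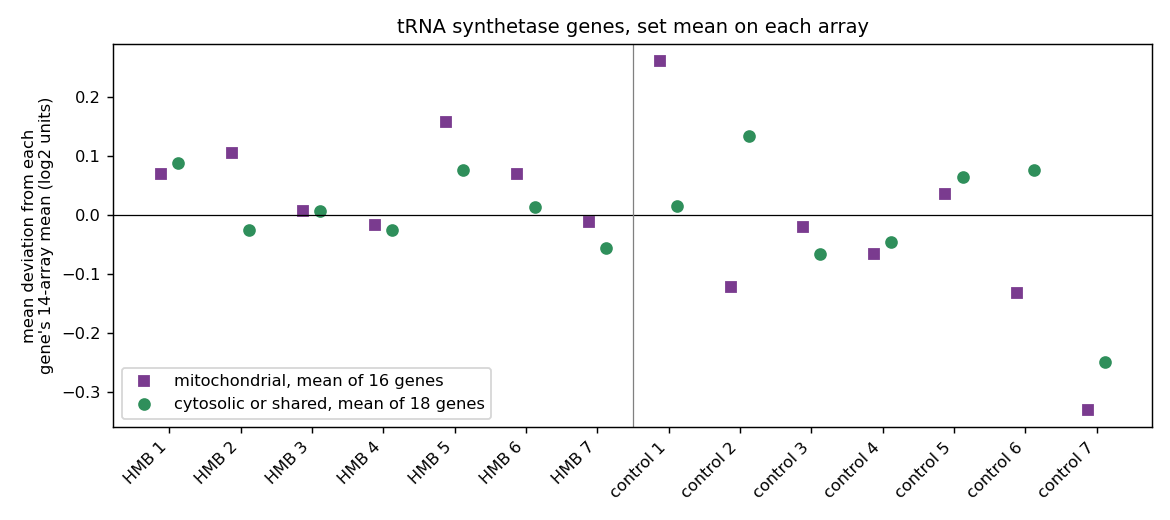
Mean deviation of the tRNA synthetase genes from each gene's mean over 14 arrays, in log2 units on the vertical axis, for each HMB and then each control array. Squares are the mean of 16 mitochondrial and circles of 18 cytosolic or shared enzymes; the HMB arrays lie between -0.055 and 0.16, and control 7 is lowest for both sets (-0.33 and -0.25).

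For 15 amino acid enzymes of mitochondria a measured cytosolic counterpart existed, which gave 16 pairs because Fars2 was paired with both cytosolic subunits of the phenylalanine enzyme. Eprs stands in 2 of the pairs, with Ears2 and with Pars2. The mitochondrial enzyme had the more positive difference in 13 of 16 pairs and the same sign as its counterpart in 12, against 12 and 9 of 16 without control 7. The widest gap was that of asparagine, where Nars2 exceeded Nars by 0.26 ± 0.19 (SE). For arginine, Rars2 exceeded Rars by 0.25 ± 0.22 and the enzymes had opposite signs. The histidine, isoleucine and tryptophan pairs ran the other way, with Hars2, Iars2 and Wars2 below their counterparts by 0.046, 0.070 and 0.045. Without control 7 the tryptophan gap turned to 0.0081, and the serine and valine gaps, 0.020 and 0.042 with all arrays, to -0.064 and -0.091. For leucine the gap was 0.11 ± 0.20, and 0.031 without control 7. Of the 16 pairs compared, 0 reached an exact permutation p under 0.05 (smallest 0.202, for asparagine), so no gap was told apart from 0 at that threshold.

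**Figure D4:**
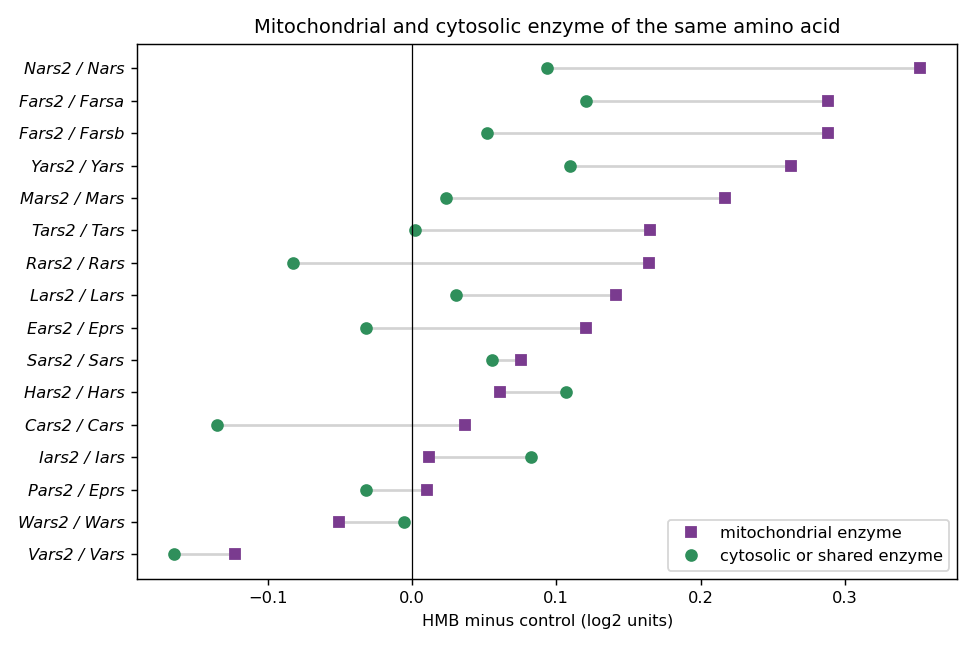
HMB minus control difference, in log2 units, of the mitochondrial (squares) and the cytosolic or shared enzyme (circles) of the same amino acid, joined by a line. The square lies right of the circle in 13 of 16 pairs, and the longest line is that of asparagine (0.35 for Nars2, 0.094 for Nars).

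The controls varied more than the HMB arrays, in the cytosolic or shared enzymes less so once control 7 was left out. The SD was larger in control than in HMB muscle for 14 of 18 cytosolic or shared enzymes, and for 10 of 18 without control 7. The mitochondrial count was 11 of 16 with and without it, and the share of all genes was 57.9% with and 47.5% without it. Control 7 had the lowest of the 14 values for 9 cytosolic or shared enzymes (Gars, Iars, Kars, Mars, Qars, Rars, Tars, Wars and Yars) and for 5 mitochondrial ones (Cars2, Lars2, Rars2, Tars2 and Yars2), beside 19.1% of all genes and 33.8% of the 3644 genes above the intron percentile on every array. Against the mean of the other controls, 16 of 18 cytosolic or shared enzymes were lower on control 7, by a median of -0.30, and 13 of 16 mitochondrial ones, by a median of -0.35. Over all genes 58.7% were lower, with a median of -0.13, and over those 3644 genes 66.1%, with a median of -0.19. The part of the lymphocyte and adipocyte RNA on that array in these low values was not tested.

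The partners of the synthetases did not pass the adjustment over all genes either. The scaffold proteins that hold the multi-synthetase complex together had differences of 0.085 (Aimp1), 0.13 (Aimp2) and -0.13 (Eef1e1), which were -0.010, -0.0051 and -0.19 without control 7. The mitochondrial amidotransferase, which makes glutamine tRNA from a mischarged precursor in place of a mitochondrial glutamine enzyme, was higher by mean in all 3 subunits measured, Gatb by 0.36, Qrsl1 by 0.16 and Gatc by 0.13 (exact permutation p = 0.115 to 0.429). Without control 7, the lowest control for Gatb and Gatc, these were 0.18, 0.13 and 0.032. Mtfmt, which formylates the initiator tRNA, had 0.074. Among 7 cytosolic elongation factor genes, 5 had a higher mean in HMB muscle with a median of 0.028, and the largest difference was that of Eef1a1, which delivers charged tRNA to the ribosome, at -0.29 (exact permutation p = 0.244), and -0.14 without control 7. The median of these 7 genes was then 0.0095.

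Of 10 mitochondrial translation factors, 7 had a higher mean in HMB muscle (median 0.055), and 6 without control 7 (median 0.018). Mtif3, an initiation factor of the mitochondrial ribosome, lay between 10.09 and 10.48 on the HMB arrays, against 8.91 to 10.07 on the control arrays. The groups did not overlap, as in 0.0974% of all genes. Its means were 10.21 ± 0.14 for HMB and 9.69 ± 0.43 for control (SD, n = 7 each), a difference of 0.51 (limma p = 0.010, exact permutation p = 0.000583, the smallest that 3432 splits can give; adjusted p = 0.990), so it did not pass the adjustment over all genes. Without control 7 the difference was 0.38. Tsfm and Mtrf1, an elongation and a release factor, had 0.25 and 0.20. None of the 14 arrays had Mtif3, Tsfm or Mtrf1 above the intron percentile.

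The amino acid response was followed through 27 measured genes of the Atf4 program, of which 12 had a higher mean in HMB muscle (median -0.069), and 14 without control 7 (median 0.0012). The list mean was 8.84 ± 0.40 in HMB and 8.91 ± 0.21 in control muscle (SD, n = 7 each). HMB 4 had the highest list mean of the 14 arrays, 9.71, which raised the HMB mean. No control exceeded 9.11, and every HMB array except HMB 4 lay between 8.53 and 8.91. The part of HMB 4 in the count and median of this list was not tested. Atf4 itself had a difference of 0.14 (limma p = 0.215, exact permutation p = 0.087). The smallest limma p values belonged to Slc7a5, a leucine and large neutral amino acid transporter (-1.02, exact permutation p = 0.0256), Sesn2, a leucine sensor (0.59, p = 0.0239), and Cth, an enzyme of cysteine synthesis (0.77, p = 0.0437), each with a limma adjusted p of 0.990. These 3 genes had differing signs and did not exceed the intron percentile on any array, so their differences are between levels under the background used here. Slc7a5 lay above the median of the intron probesets on 12 of the 14 arrays, Cth on 8 and Sesn2 on 0. Asns, the asparagine synthetase that Atf4 induces, had -0.51 (exact permutation p = 0.277) and was likewise under the intron percentile throughout. Of the 27 genes, 3 lay above the intron percentile on all 14 arrays and 18 on none. Over all 19505 genes, 3644 lay above it on all 14 arrays and 5590 on at least 1.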

How the data were processed

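Processed values were taken from the series' value table of 14 Clariom S arrays (28846 probesets, of which 22206 measure genes). The authors deposited a column of values per array, and the log2 scale was inferred from the value range. The sources used here do not name the summarisation software, so differences are given in log2 units without fold changes. Probesets with 1 gene symbol in the platform annotation (19572; 2634 had none) were averaged per gene, giving 19505 genes. Titles gave the groups, 7 HMB and 7 control arrays, 1 mouse each.

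HMB minus control was fitted with limma 3.58.1 (R 4.3.3; lmFit and eBayes, all genes together, two-sided, Benjamini-Hochberg over all genes), with an exact permutation test over 3432 splits for single genes. The fit was tested on simulated data. Background was the 95th percentile of 5222 intron control probesets. Alternatives were quantile normalisation, median centring, filters on low values, other variance settings, array weights, a replicate block, the methods' t-test and leaving arrays out.

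The members and lists were chosen with earlier results of these data known. Values by group are given for the 5 enzymes of smallest p in each compartment, Gars, Kars, Wars and enzymes with an outlying array, and up to 3 genes of smallest p are named from each other list, beside Atf4 and other genes named after their values were seen. Promoters came from RefSeq (GRCm38.p6). Protein sequences were not used here. The number of arrays limits the precision.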

Additional observations from a re-analysis of the deposited data

Results flagged for a closer look

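In 3 of 68 groups of arrays (34 enzymes, HMB and control), 1 array lay far from the other 6 by Dixon's test, and chance alone marks about 5% of groups. For Gars, control 7 was the lowest control at 13.05, with the other controls between 13.57 and 13.76. For Fars2, HMB 2 was the highest HMB array at 11.36, with the others between 10.33 and 10.74. For Lars2, HMB 4 was the lowest HMB array at 10.31, with the others between 10.68 and 10.90.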

How the results depend on the processing

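Under all alternatives 0 enzymes and 0 genes passed the adjusted threshold, with 798 to 1050 genes of 19505 at an unadjusted p under 0.05 in fits of all genes, and the median difference of the mitochondrial enzymes stayed positive. With the 5590 genes above the intron percentile on at least 1 array, 4 mitochondrial enzymes could be counted, all 4 higher in HMB muscle. Of the cytosolic or shared enzymes, 11 of 16 were then higher, beside 58.0% of all genes kept. Fars2 passed this filter on 2 HMB arrays and 0 control arrays, and Sars2 on 0 HMB arrays and 1 control array. The filter thus drew on the values compared, and the count of 4 is a description only. Array weights gave 8 of 18 cytosolic or shared and 12 of 16 mitochondrial enzymes higher, beside 50.5% of all genes. Leaving out 1 array in turn gave 9 to 13 cytosolic or shared and 11 to 14 mitochondrial enzymes higher, with medians of -0.0070 to 0.058 and 0.047 to 0.18. The share of all genes higher lay between 49.8% (without control 7) and 52.9% (without HMB 4).

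Several small differences changed sign, and the cause was not tested. Median centring, which raised the median of all genes to 0.080, gave 0.039 for Eprs, 0.057 for Qars, 0.065 for Wars, 0.065 for Aars2 and 0.020 for Wars2, with 631 genes higher and 242 lower at an unadjusted p under 0.05, against 458 and 427 as reported. Renewed quantile normalisation gave -0.018 for Tars, 0.057 for Aars2 and -0.0067 for Iars2. Array weights gave -0.030 for Gars, -0.036 for Lars, -0.0054 for Mars, -0.027 for Tars, 0.026 for Aars2, -0.0093 for Cars2 and -0.013 for Sars2. Without control 7 and HMB 4 together the values were -0.056 for Gars, -0.024 for Lars, -0.026 for Mars, -0.024 for Tars, -0.055 for Cars2, -0.032 for Iars2 and -0.079 for Sars2.

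Leaving out 1 array gave ranges across 0 of -0.066 to 0.016 for Eprs, -0.027 to 0.10 for Gars, -0.019 to 0.095 for Lars, -0.091 to 0.10 for Mars, -0.068 to 0.029 for Qars, -0.0046 to 0.13 for Sars, -0.036 to 0.055 for Tars, -0.071 to 0.050 for Wars, -0.17 to 0.12 for Aars2, -0.058 to 0.12 for Cars2, -0.030 to 0.048 for Iars2, -0.085 to 0.065 for Pars2 and -0.038 to 0.16 for Sars2. Fars2 had an unadjusted p of 0.040 without HMB 4 and 0.176 without HMB 2.

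The replicate numbers showed no clear pairing of the arrays in these values, a check that cannot exclude that same-numbered arrays were handled together. With each gene's group mean subtracted, same-numbered arrays correlated between -0.075 and 0.12, and 1 of 7 HMB arrays correlated best with its own number. With the replicate block, 0 genes were called, 958 had an unadjusted p under 0.05, against 885 without it, and the medians were 0.041 and 0.098 as reported. Genes under the intron percentile are limited by signal over background.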
